A study of Mus musculus with 54 samples.

Results

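The genes described here form the Lin28 and let-7 axis of murine embryonic stem cells (ESCs) together with the Igf2bp family. They were chosen by name: Lin28a, Lin28b, Trim71, Igf2bp1, Igf2bp2, Igf2bp3, Hmga1, Hmga2 and Dicer1. Of these 9 genes, 7 had a probe set of the Affymetrix Mouse Genome 430 2.0 array in the data used here. Hmga1 and Igf2bp2 were not analysed here. The 7 genes had 21 of the 30939 probe sets, and each gene was represented by the probe set with the highest mean over all 54 arrays.

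Total RNA was measured in CGR8 ESCs, a male line on a 129 background, and in the embryoid bodies (EBs) that these cells form in hanging drops. There were 3 lines. WT cells were unmodified, SCR cells carried a plasmid with a non-targeting scrambled short hairpin RNA, and Mageb16 knockdown (KD) cells carried one with a hairpin against Mageb16. Each line was sampled as undifferentiated ESCs on day 0 and as EBs on days 2, 4, 12, 15 and 22, with 3 arrays per line and day and so 18 groups. SCR and KD cells were each 1 puromycin-selected polyclonal population, so the effect of a construct and that of a cell line cannot be told apart. Nothing in the labels tells if a group's 3 arrays stem from separate cultures, and the p-values below thus measure the spread between arrays, which may be technical.

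Lin28a and Lin28b are RNA-binding proteins that block the maturation of the let-7 microRNAs, and mature let-7 in turn represses the Lin28 transcripts, so that stem cells hold high Lin28 and low let-7 and differentiated cells the reverse. Dicer1 is the ribonuclease that cuts microRNA precursors, let-7 among them, to their mature form. Trim71, Hmga2, Igf2bp1, Igf2bp2 and Igf2bp3 are all known let-7 targets. Trim71 is an RNA-binding ubiquitin ligase of early embryos, and Hmga1 and Hmga2 are chromatin proteins that bind AT-rich DNA. The Igf2bp proteins bind messenger RNAs such as that of Igf2. The array measured messenger RNAs and some microRNA host transcripts, and mature let-7 itself was not measured.

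The sequence by which let-7 recognises these targets is its seed, bases 2 to 8 from the 5′ end. In RefSeq on GRCm38.p6, 10 mature mouse names of the let-7 family, let-7a, b, c, d, e, f, g, i and k and miR-98, shared the seed GAGGUAG. In let-7j the seed differed from theirs. Over all 1679 mature mouse names, 11 had GAGGUAG as seed. Members that show how the rest of the sequence varies are printed here 5′ to 3′, with the seed in capitals.

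mmu-let-7a-5p (chr13:48538239-48538260, minus strand): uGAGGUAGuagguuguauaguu
mmu-let-7d-5p (chr13:48536078-48536099, minus strand): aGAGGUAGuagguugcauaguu
mmu-let-7e-5p (chr17:17830366-17830387, plus strand): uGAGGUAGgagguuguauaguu
mmu-let-7g-5p (chr9:106178846-106178867, plus strand): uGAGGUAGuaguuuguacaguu
mmu-let-7i-5p (chr10:122985698-122985719, minus strand): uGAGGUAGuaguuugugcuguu
mmu-miR-98-5p (chrX:151913229-151913250, plus strand): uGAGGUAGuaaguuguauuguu
mmu-let-7j (chr3:140028281-140028304, plus strand): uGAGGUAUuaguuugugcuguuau

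The precursors are what Lin28 proteins bind, at the loop between the 2 arms, where the letters GGAG are the known contact of their zinc knuckles. Of 13 let-7 and miR-98 hairpins, 11 had both arms annotated. GGAG lay between the arms in 8 of these 11 (72.7%), and in 52 of all 644 mouse hairpins with both arms (8.07%), each hairpin being read on its own strand. The hairpins of Mir98, Mirlet7b and Mirlet7c-2 did not have these letters there. A hairpin with the letters, in capitals, and one without are shown.

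Mirlet7g (chr9:106178840-106178927, plus strand): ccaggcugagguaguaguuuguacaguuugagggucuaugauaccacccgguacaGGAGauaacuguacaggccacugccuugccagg
Mirlet7b (chr15:85707319-85707403, plus strand): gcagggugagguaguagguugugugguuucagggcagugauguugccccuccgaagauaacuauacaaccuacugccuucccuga

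Mageb16, the gene targeted by the hairpin, was lower in KD than in SCR cells on all 6 days, with log2 differences from -2.43 (day 22) to -5.75 (day 4). It was also lower in KD than in WT cells on all 6 days. SCR cells had more of it than WT cells on day 2 (difference of log2 means 1.19) and day 4 (2.47), so that SCR and WT, both controls, differed there in the targeted gene itself. Pou5f1, Nanog, Sox2 and the other listed pluripotency markers, 12 in all, were above the array median on every day-0 array. All values below are RMA-normalized log2 signals, and a difference of 1 is a 2-fold change. A gene was called higher or lower where limma, fitted to all probe sets and arrays, gave an adjusted p (Benjamini-Hochberg) under 0.05 and the change was 2-fold or more, and "rose", "fell", "higher" and "lower" as verdicts refer to such calls. Arrays of the same group correlated at 0.986 to 0.997 over all probe sets.

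**Figure D1:**
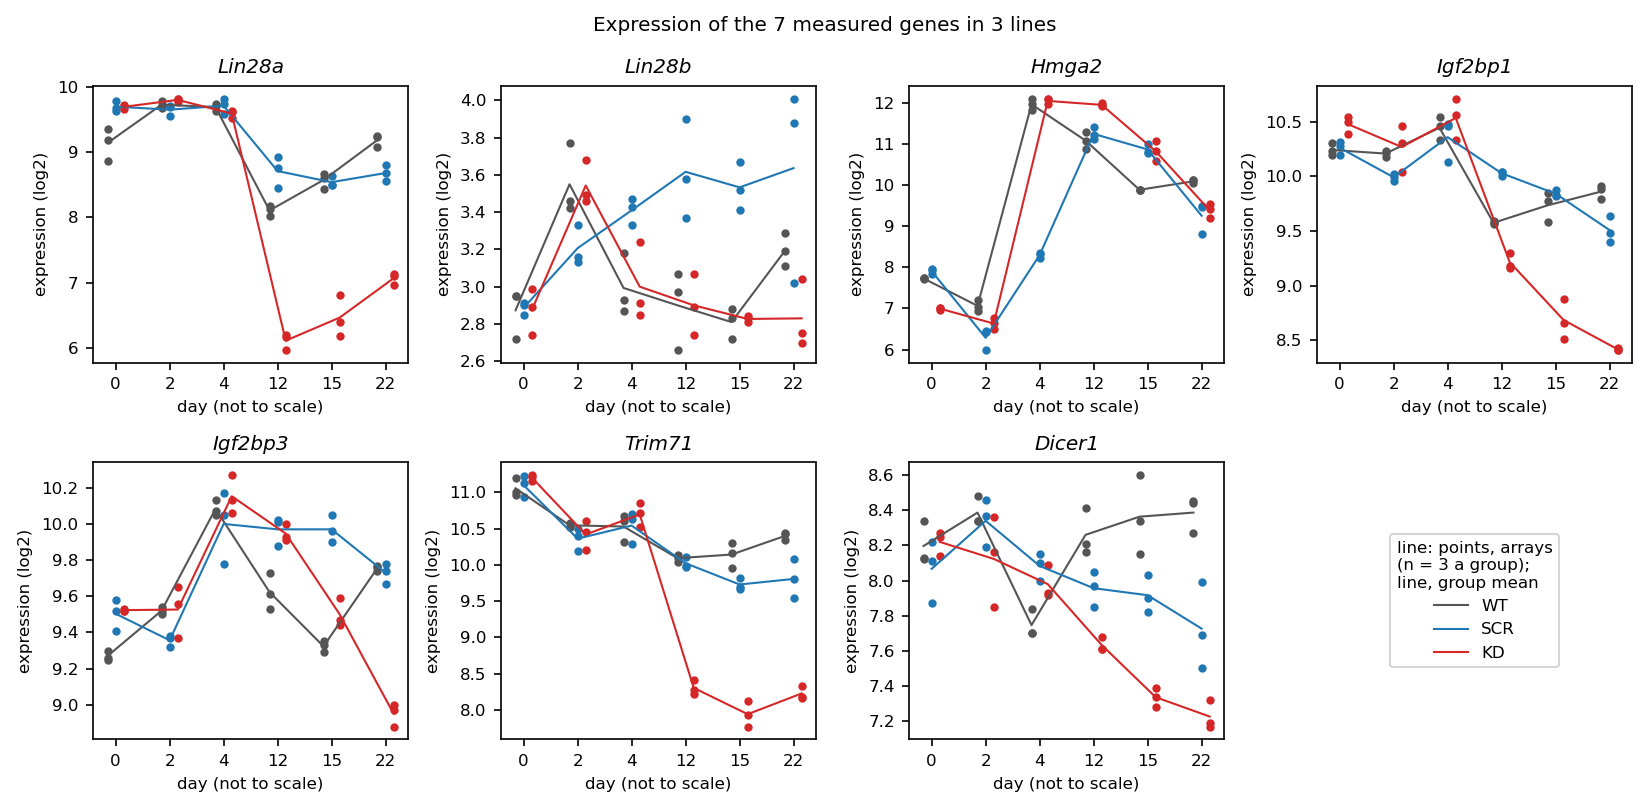
Log2 signal (y axis) of the 7 measured genes on days 0, 2, 4, 12, 15 and 22 (x axis, not to scale) in WT, SCR and KD cells. Points are single arrays, 3 per group, and lines join group means. Lin28a and Trim71 in KD EBs lay below all WT and SCR arrays of days 12, 15 and 22, and Hmga2 in 4-day SCR EBs lay below the WT and KD arrays of that day.

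Lin28a, the Lin28 protein of pluripotent cells, was read from the brighter of 2 probe sets. Its log2 signals on day 0 were 8.87, 9.36 and 9.19 in WT, 9.63, 9.67 and 9.79 in SCR and 9.70, 9.66 and 9.72 in KD ESCs. On day 4 they were 9.71, 9.63 and 9.73 in WT, 9.58, 9.82 and 9.73 in SCR and 9.63, 9.52 and 9.62 in KD EBs. All 3 lines thus carried the transcript at similar, high levels through day 4, with the WT arrays of day 0 the lowest.

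By day 12 the lines had separated. The 12-day arrays read 8.13, 8.02 and 8.17 in WT, 8.45, 8.93 and 8.75 in SCR and 5.97, 6.17 and 6.20 in KD EBs. On day 22 they read 9.08, 9.25 and 9.23 in WT, 8.80, 8.56 and 8.68 in SCR and 6.97, 7.10 and 7.14 in KD EBs. Every KD array lay below every WT and SCR array on days 12, 15 and 22, and the 3 late KD groups had the lowest of all 18 group means. KD EBs had less Lin28a than SCR EBs by a log2 difference of -2.60 ± 0.11 (SE, n = 3 arrays per group; 6.05-fold; limma adjusted p = 4.83e-22) on day 12, -2.07 ± 0.11 (4.21-fold; adjusted p = 3.31e-19) on day 15 and -1.61 ± 0.11 (3.05-fold; adjusted p = 5.11e-16) on day 22. Against WT EBs the differences were -1.99, -2.11 and -2.12, each ± 0.11. In SCR against WT EBs no call was made on any of these days, with differences of 0.60, -0.03 and -0.51.

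Within the KD line, Lin28a fell by 3.58 ± 0.11 on the log2 scale from day 0 to day 12 (12.0-fold; limma adjusted p = 8.53e-28). From day 12 to day 22 its mean went from 6.11 to 7.07, a difference of 0.96 that stayed short of 2-fold. In WT cells it fell by 1.03 from day 0 to day 12 and rose by 1.08 from day 12 to day 22, which put the day-22 mean (9.19) beside that of day 0 (9.14). The second probe set of Lin28a, with lower signals, was also called lower in KD than in SCR EBs over days 12 to 22, by 1.29 against 2.09 for the brighter one.

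Lin28b, the paralogue that is itself a let-7 target, was near the floor of the array. Its signals, 2.66 to 4.01 over the 54 arrays, were below the lower quartile of their own array (4.23 to 4.51) on every array. It was called in no comparison. On day 22 it read 3.02, 4.01 and 3.88 in SCR, 2.75, 3.04 and 2.70 in KD and 3.11, 3.19 and 3.29 in WT EBs, and the SCR and KD arrays overlapped. Over days 12 to 22 SCR EBs differed from WT EBs by 0.63 ± 0.09 (SE) and KD from SCR EBs by -0.74 ± 0.09, both under 2-fold, while KD and WT EBs differed by -0.12. At this signal, differences are no measure of how much transcript was there.

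Trim71, which with Lin28a is a stem cell factor kept low by let-7 in later cells, followed a like course. Its day-0 signals were 11.2, 10.97 and 11 in WT, 11.23, 10.94 and 11.13 in SCR and 11.22, 11.16 and 11.24 in KD ESCs. On day 12 the arrays read 10.1, 10.04 and 10.14 in WT, 9.97, 10.11 and 9.99 in SCR and 8.41, 8.22 and 8.28 in KD EBs. On day 22 they read 10.34, 10.43 and 10.44 in WT, 10.08, 9.54 and 9.80 in SCR and 8.17, 8.33 and 8.18 in KD EBs.

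The lines overlapped on days 0 and 4, and the KD arrays were apart from both controls on days 12, 15 and 22. KD EBs were lower than SCR EBs by 1.72 ± 0.12 (SE, n = 3 per group; 3.29-fold; limma adjusted p = 1.23e-15) on day 12, by 1.79 ± 0.12 (3.46-fold; adjusted p = 2.78e-16) on day 15 and by 1.58 ± 0.12 (2.99-fold; adjusted p = 8.83e-15) on day 22. Against WT EBs the differences were -1.79, -2.20 and -2.18, all called. Both probe sets of Trim71 were called lower in KD than in SCR EBs over days 12 to 22, at -1.73 and -1.70. Within lines, Trim71 fell from day 0 to day 22 by 2.98 in KD and by 1.29 in SCR cells. In WT cells the difference of this probe set was -0.65 and was not called, while the other probe set was called lower at -1.13.

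Over the 18 group means the Lin28a and Trim71 profiles correlated at Pearson r = 0.929, a description over groups that share lines and days. Because these 2 genes were lower together, the 250 bases before the start of their RefSeq transcripts are shown, with motif matches in capitals. The letters searched on both strands were the octamer bound by Pou5f1, ATGCAAAT, the core bound by Sox factors, CATTGT, and the E-box CACGTG. Over all 32851 mouse promoters of this length, the octamer was found in 1.6%, the Sox core in 10.7% and the E-box in 6.02%.

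Lin28a (chr4:134018817-134019066, minus strand): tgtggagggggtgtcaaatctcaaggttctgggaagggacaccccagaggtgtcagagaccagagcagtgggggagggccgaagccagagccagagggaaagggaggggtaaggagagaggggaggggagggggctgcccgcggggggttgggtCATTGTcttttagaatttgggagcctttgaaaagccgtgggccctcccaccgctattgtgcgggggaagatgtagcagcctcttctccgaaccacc
Trim71 (chr9:114564370-114564619, minus strand): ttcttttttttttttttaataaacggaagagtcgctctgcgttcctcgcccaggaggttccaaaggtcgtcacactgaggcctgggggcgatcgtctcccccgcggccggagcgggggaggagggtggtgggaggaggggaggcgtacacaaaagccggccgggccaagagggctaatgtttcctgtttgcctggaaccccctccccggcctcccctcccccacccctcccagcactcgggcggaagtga

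Lin28a had 1 Sox core, starting 96 bases before the transcript start, and Trim71 had none of the 3 motifs. Of the other members in the promoter table, Lin28b had an E-box 49 bases and Igf2bp3 an E-box 23 bases before the start, Hmga1 had the octamer, and Hmga2, Igf2bp2 and Dicer1 had no match. A match is a description of letters, and a missing one says only that these letters are not in this window. Lin28a lies on chromosome 4 (134003330 to 134019196 on GRCm38.p6) and Trim71 on chromosome 9 (114511268 to 114564369).

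Igf2bp1, the family member studied most as an oncofetal RNA-binding protein, was lower in KD than in SCR EBs on days 15 and 22. Its signals on day 12 were 9.56, 9.57 and 9.59 in WT, 10.04, 10 and 10.04 in SCR and 9.18, 9.30 and 9.16 in KD EBs. On day 15 they were 9.85, 9.58 and 9.77 in WT, 9.83, 9.82 and 9.87 in SCR and 8.66, 8.88 and 8.51 in KD EBs. On day 22 they were 9.79, 9.88 and 9.91 in WT, 9.64, 9.40 and 9.48 in SCR and 8.41, 8.41 and 8.43 in KD EBs. The KD arrays were below both controls on each of these days, and their group means stepped down from 9.21 to 8.68 to 8.42. Against SCR EBs the difference was -0.81 ± 0.09 on day 12, short of 2-fold, -1.16 ± 0.09 (2.23-fold; limma adjusted p = 7.92e-14) on day 15 and -1.09 ± 0.09 (2.13-fold; adjusted p = 3.85e-13) on day 22. Against WT EBs it was -0.36 on day 12, not called, and then -1.05 and -1.44, both called.

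Averaged over days 12 to 22, Igf2bp1 differed between KD and SCR EBs by -1.02 ± 0.05, just past 2-fold. Of its 4 probe sets, 3 were called lower there, and the 4 ranged from -1.17 to -0.763. This call was lost without replicate 1 or replicate 3 of all groups, without the 22-day SCR replicate 1 or without the 15-day KD replicate 3, and in a limma test against a 2-fold minimum, with values of -1.09 to -0.98 over all settings. In the same average against WT EBs the difference was -0.95, not called.

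Igf2bp3, its close relative, was called in no comparison by its brightest probe set. On day 4 its signals were 10.07, 10.05 and 10.13 in WT, 9.78, 10.17 and 10.05 in SCR and 10.06, 10.27 and 10.13 in KD EBs, and the lines overlapped. On day 22 they were 9.76, 9.74 and 9.77 in WT, 9.78, 9.67 and 9.74 in SCR and 9.0, 8.88 and 8.97 in KD EBs. The KD arrays of day 22 were below both controls, with a difference of -0.78 ± 0.07 from SCR EBs (limma adjusted p = 3.72e-12) that did not reach 2-fold. None of its 6 probe sets was called in KD against SCR EBs over days 12 to 22, and 1 of the 6 was called lower in KD against WT EBs on day 22. Within KD cells, 1 of the 6 was called lower than on day 0 on day 15 (-1.34) and on day 22 (-1.62). It was the dimmest of the 6, which on day 15 ranged from -1.34 to 0.21. From day 12 to day 22, 2 of the 6 were called lower in KD cells.

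Hmga2, the chromatin protein whose transcript is the best known let-7 target, was apart in SCR cells on day 4. Its arrays read 7.72, 7.73 and 7.74 in WT, 7.83, 7.96 and 7.93 in SCR and 7.01, 7.01 and 6.97 in KD ESCs on day 0. On day 4 it read 12.1, 11.82 and 11.96 in WT, 8.22, 8.35 and 8.32 in SCR and 11.96, 12.09 and 12.08 in KD EBs. On day 12 it read 10.88, 11.28 and 11.08 in WT, 11.4, 11.12 and 11.21 in SCR and 11.91, 11.99 and 11.94 in KD EBs. WT and KD EBs overlapped near the top of the range on day 4, SCR EBs were still close to their day-0 level, and by day 12 SCR EBs were also high.

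From day 0 to day 4 Hmga2 rose by 4.23 ± 0.13 (SE) on the log2 scale in WT (18.8-fold; limma adjusted p = 1.36e-27) and by 5.05 ± 0.13 in KD cells (33.1-fold; adjusted p = 1.25e-29). In SCR cells the difference was 0.39 ± 0.13, which was not called, after a fall of 1.62 from day 0 to day 2. On day 4 KD EBs had 13.4-fold more Hmga2 than SCR EBs (log2 difference 3.75 ± 0.13; adjusted p = 1.2e-25), and SCR EBs had less than WT EBs by 12.7-fold (-3.66 ± 0.13; adjusted p = 3.28e-25). These 2 comparisons share the SCR arrays. KD and WT EBs differed by 0.08 ± 0.13 on that day. All 4 probe sets gave the same calls on day 4, from 2.18 to 4.14 in KD against SCR and from -4.11 to -2.07 in SCR against WT. The smallest differences, 2.18 and -2.07, came from a dim probe set that was below its array's lower quartile on 42 of the 54 arrays.

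After day 12 Hmga2 went down again in SCR and KD cells, with falls of 1.99 and 2.56 from day 12 to day 22. In WT cells the difference was -0.99 (1.99-fold; limma adjusted p = 7.54e-08), just short of the threshold, and 2 of the 4 probe sets were called lower. On day 22 the arrays read 10.11, 10.05 and 10.11 in WT, 8.80, 9.50 and 9.46 in SCR and 9.42, 9.19 and 9.54 in KD EBs, with SCR and KD overlapping. In day-0 cells KD was below SCR by 0.91 ± 0.13 (limma adjusted p = 1.12e-06), with no overlap and short of 2-fold, and 1 of the 4 probe sets passed at -1.02. Over days 12 to 22 KD and SCR EBs differed by 0.26 ± 0.07. Lin28a and Hmga2 had r = -0.512 over the 18 group means.

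Dicer1 had small differences, on which its 2 probe sets did not agree. On day 22 the brighter one read 8.45, 8.27 and 8.44 in WT, 7.99, 7.50 and 7.69 in SCR and 7.32, 7.19 and 7.17 in KD EBs, with all KD arrays below the others. KD was called lower than WT on day 15 (-1.03 ± 0.11; limma adjusted p = 1.66e-10) and on day 22 (-1.16 ± 0.11; adjusted p = 6.04e-12). The other probe set gave 0.23 on day 15 and -0.85 on day 22, neither called. Against SCR EBs the differences were -0.58 on day 15 and -0.50 on day 22, also not called.

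**Figure D2:**
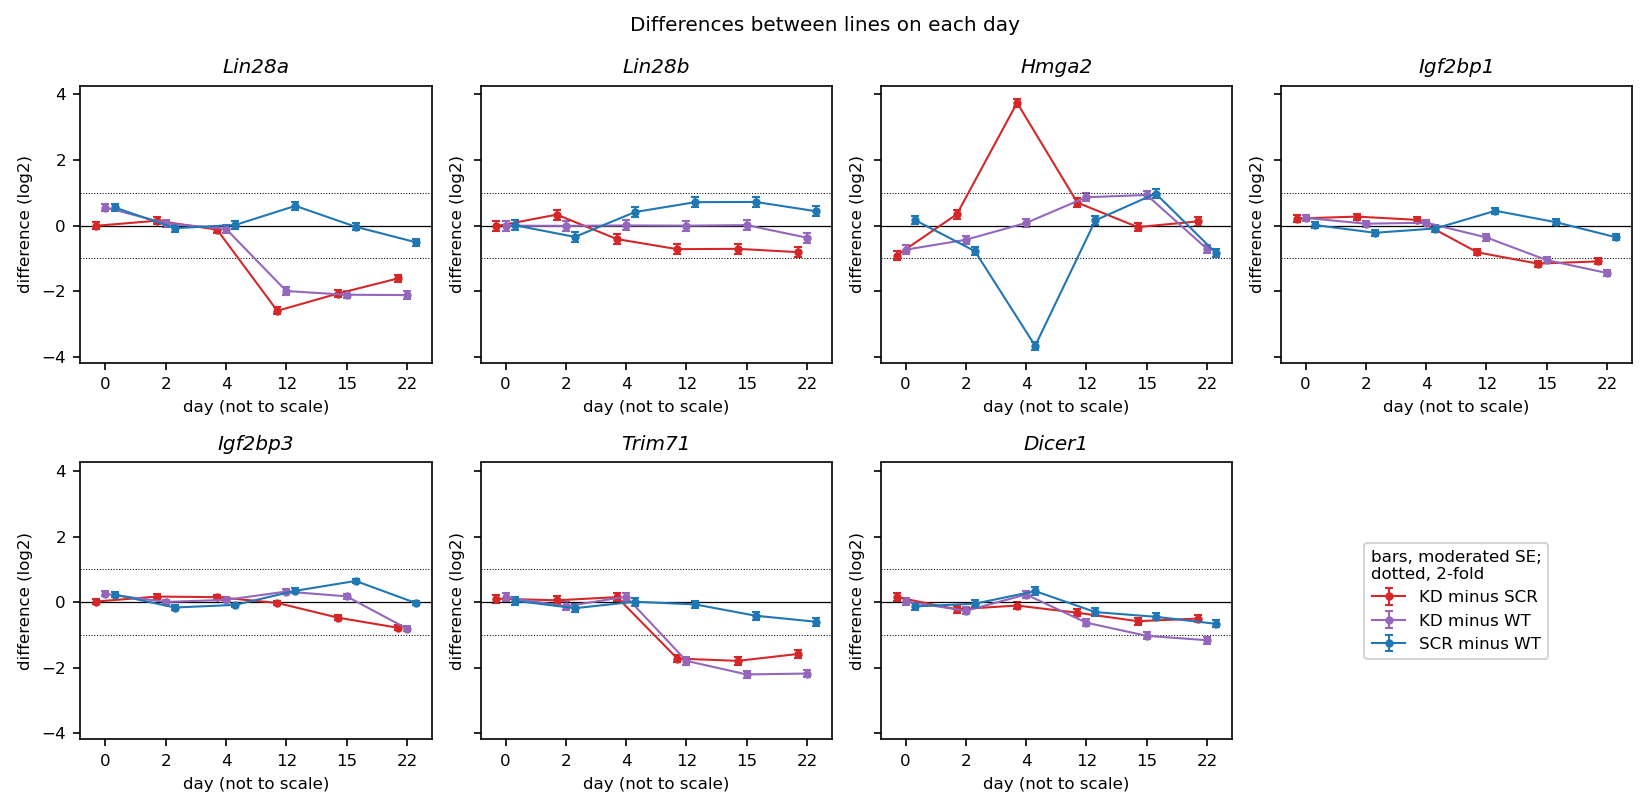
Difference of log2 group means (y axis) of KD minus SCR, KD minus WT and SCR minus WT on each day (x axis, not to scale) for the 7 genes. Bars are the moderated standard errors from limma and the dotted lines mark 2-fold. Lin28a, Trim71 and Igf2bp1 left the zero line in both KD comparisons from day 12 on, and Hmga2 on day 4 went to 3.75 in KD minus SCR and to -3.66 in SCR minus WT.

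Counted over the 7 genes, KD against SCR gave no call on days 0 and 2, when 0.928% and 3.6% of all probe sets were called. At an unadjusted p under 0.05, 2 and 4 genes passed on those days. The share of all probe sets passing that looser rule was not computed. Such counts, here and below, thus have no background to be read against. On day 4 the call of Hmga2 stood beside 9.73% of all probe sets. There were 2 calls on day 12 (11.1% of all probe sets), 3 on day 15 (12.6%) and 3 on day 22 (12.4%), all lower in KD. Averaged over days 12 to 22, Lin28a, Trim71 and Igf2bp1 were lower and none was higher, where 11.3% of all probe sets were called in either direction and 3.93% were called lower. The median difference of the 7 genes was -0.743, beside -0.0578 over all probe sets.

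KD against WT gave no call on days 0, 2 and 4, with 1.05%, 0.666% and 0.242% of all probe sets called, and 4, 2 and 1 genes at an unadjusted p under 0.05. It gave 2 calls on day 12 (9.09% of all probe sets), 4 on day 15 (17.5%) and 4 on day 22 (19.7%), all lower in KD. Hmga2 differed by 0.87 on day 12, 0.94 on day 15 and -0.71 on day 22, none called. Of its 4 probe sets, 1 was called higher in KD on day 12 (1.12) and 1 on day 15 (1.04). The day-12 call came from a dim probe set, below its array's lower quartile on 42 of the 54 arrays. Over days 12 to 22, Lin28a (-2.07) and Trim71 (-2.06) were called lower, where 14.3% of all probe sets were called. The median of the 7 genes was -0.938, beside -0.0189 over all probe sets.

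SCR against WT gave the single call of Hmga2 on day 4, where 9.04% of all probe sets were called. No gene was called on day 0 (0.627% of all probe sets), day 2 (1.93%), day 12 (3.48%), day 15 (6.36%), day 22 (7.93%) or over days 12 to 22 (4.72%). At an unadjusted p under 0.05, 2, 4, 5, 5, 6 and 4 of the 7 genes passed in these comparisons. Hmga2 on day 15 came nearest to a call, at 0.98, and 1 of its 4 probe sets was called higher there, at 1.07.

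Over time, no gene was called on day 2 against day 0 in WT (10.4% of all probe sets) or KD cells (11.2%), where 5 and 4 genes had an unadjusted p under 0.05, and Hmga2 was lower in SCR cells (10.2%). On day 4 against day 0, Hmga2 was called in WT (19.3%) and KD cells (18.3%), and no gene was in SCR cells (12.7%), where 4 had an unadjusted p under 0.05. On day 12 against day 0, WT cells had Hmga2 higher and Lin28a lower (14.1%), SCR cells Hmga2 higher and Trim71 lower (15.8%), and KD cells Hmga2 higher and Lin28a, Trim71 and Igf2bp1 lower (28.7%). On day 22 against day 0, WT cells had only Hmga2 called (13.9%), SCR cells had Hmga2 higher with Lin28a and Trim71 lower (22.2%), and KD cells had the same 4 genes called as on day 12 (34.3%). Between days 12 and 22, Lin28a was higher in WT (4.3%) and Hmga2 lower in SCR (6.58%) and KD cells (10.9%).

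The fall of Igf2bp1 was called in KD cells alone, by 2.06 ± 0.09 from day 0 to day 22, and whether such changes differed between the lines was tested directly. The change from day 0 to the mean of days 12 to 22 differed between KD and SCR cells for 4 of the 7 genes, beside 14.3% of all probe sets. It differed by -2.09 for Lin28a, -1.80 for Trim71, -1.24 for Igf2bp1 and 1.17 for Hmga2. Between KD and WT cells the same 4 genes were called, beside 16% of all probe sets. From day 0 to day 4, Hmga2 was the gene called in KD against SCR cells (11.4% of all probe sets) and in SCR against WT cells (10.3%).

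**Figure D3:**
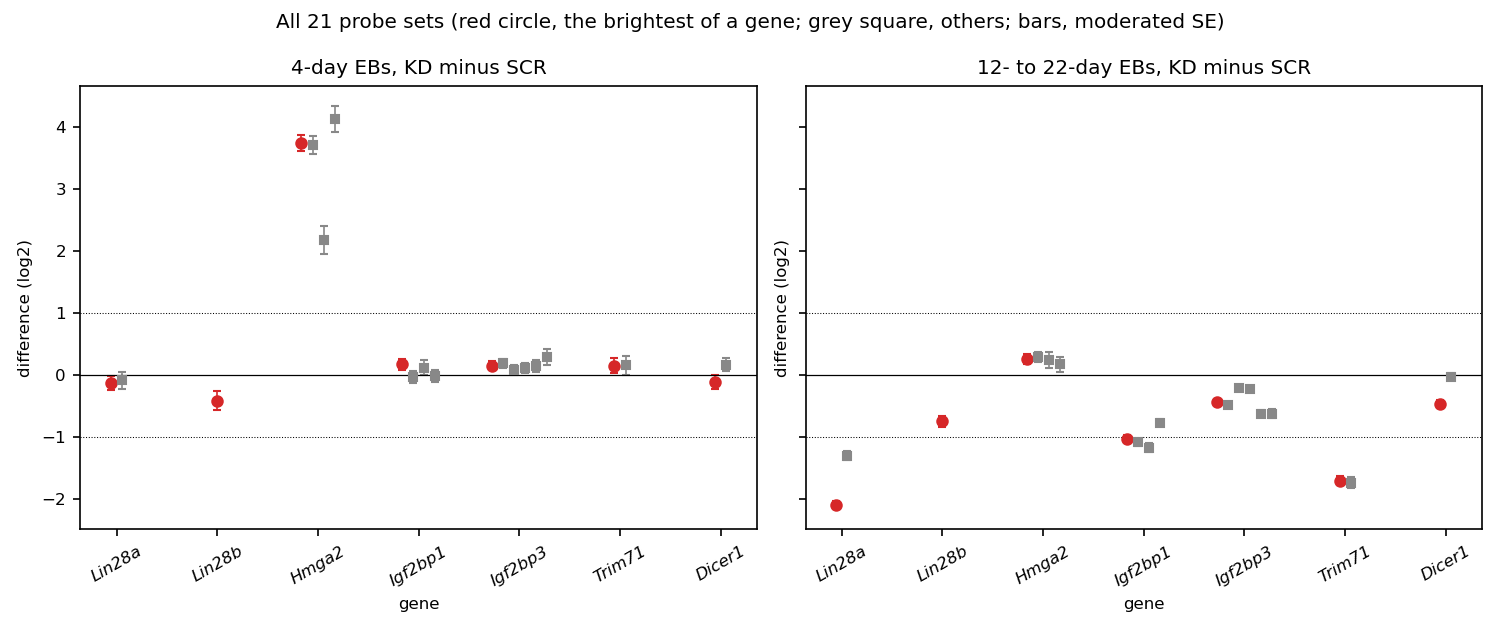
Difference of log2 means, KD minus SCR, for all 21 probe sets of the 7 genes, on day 4 and over days 12 to 22. Red circles are the probe sets that represent a gene and grey ones are the others. The 4 Hmga2 probe sets lay at 2.18 to 4.14 on day 4, and both Lin28a and both Trim71 probe sets lay at or below -1.29 over days 12 to 22.

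The markers of other cell states moved with these results. Over days 12 to 22, 10 of the 12 pluripotency markers were lower in KD than in SCR EBs and none was higher, with a median of -1.82. That was 83.3% called, beside 11.3% of all probe sets. Their summed signal on a linear scale was 5200 to 15839 in KD, 24804 to 35090 in SCR and 27491 to 34292 in WT EBs, so that the KD arrays lay apart from both controls, as for Lin28a and Trim71. Markers at their lowest in KD included Tdgf1, a Nodal co-receptor (-3.18), and the transcription factors Esrrb (-2.81), Pou5f1 (-2.63) and Zfp42 (-2.61). In KD EBs 10 of the 12 markers remained above the array median on every late array.

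Proliferation markers summed to 14365 to 18295 in late KD, 20873 to 25427 in SCR and 22048 to 26567 in WT EBs. Of these markers 1 of 9, the checkpoint kinase Bub1 (-1.26), was lower in KD than in SCR. That share, 11.1%, was near the 11.3% of all probe sets. Mesenchyme markers were higher in KD than in SCR in 8 of 10 (80%, beside 11.3% of all probe sets). Among them were the collagens Col1a1 (3.98) and Col1a2 (3.39) and the proteoglycans Dcn (3.71) and Lum (3.05). Mesenchyme sums were 31193 to 37161 in KD, 4200 to 10357 in SCR and 2983 to 21032 in WT EBs. Of the cardiac markers 8 of 10 were higher in KD than SCR (80%, beside 11.3% of all probe sets). The sarcomere genes Myl7 (4.71), Tnnt2 (3.91), Tnni3 (3.88) and Myh6 (3.78) led them. Cardiac sums were 4921 to 19216 in KD, 356 to 7281 in SCR and 417 to 6365 in WT EBs. The part of these markers in the lower Lin28a, Trim71 and Igf2bp1 was not tested, and in bulk RNA fewer cells of a type and less RNA per cell cannot be told apart.

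SCR and WT EBs also differed from each other in markers over days 12 to 22, where 4.72% of all probe sets were called. Of 10 neural markers, 9 were higher and none lower in SCR than in WT EBs. Of 10 liver and visceral endoderm markers, 9 were lower and none higher. Mesenchyme markers had 1 of 10 higher and 3 lower, and cardiac markers 3 of 10 lower and none higher. Against WT EBs, KD EBs had 4 of 10 neural markers higher and none lower (40%, beside 14.3% of all probe sets). Neural markers were lower in KD than in SCR EBs in 6 of 10 (60%, beside 11.3% of all probe sets). Among them were Sox1 (-2.30), En2 (-2.10), Pax6 (-1.86) and Fabp7 (-1.52). Neural sums were 626 to 7059 in KD, 2486 to 11447 in SCR and 438 to 1204 in WT EBs. Liver and visceral endoderm markers were higher in KD than SCR in 7 of 10 (70%, beside 11.3% of all probe sets). Among them were the plasma proteins Alb (7.76), Apoa1 (6.02), Ttr (5.36) and Apob (4.52). Against WT EBs 4 of the 10 were higher and 2 lower in KD (60%, beside 14.3%). Their sums were 12958 to 37325 in KD, 561 to 4153 in SCR and 8417 to 22478 in WT EBs. Over these days the 7 genes had a median difference of 0.0689 between SCR and WT EBs.

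On day 4 the markers split as Hmga2 did. Pluripotency sums were 32634 to 34308 in SCR, 14112 to 19071 in WT and 10483 to 14002 in KD EBs. Of the 12 markers 7 were higher and 2 lower in SCR than in WT EBs (75%, beside 9.04% of all probe sets). Mesenchyme sums were 371 to 385 in SCR, 1665 to 2785 in WT and 1819 to 2616 in KD EBs. Of these markers 6 of 10 were lower and 2 higher in SCR than in WT (80%, beside 9.04% of all probe sets). Liver and visceral endoderm sums were 189 to 216 in SCR against 1322 to 1542 in WT and 1381 to 1559 in KD EBs. Proliferation sums were alike, from 25088 to 26789 over the 9 arrays. The part of these markers in the day-4 Hmga2 difference was not tested.

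**Figure D4:**
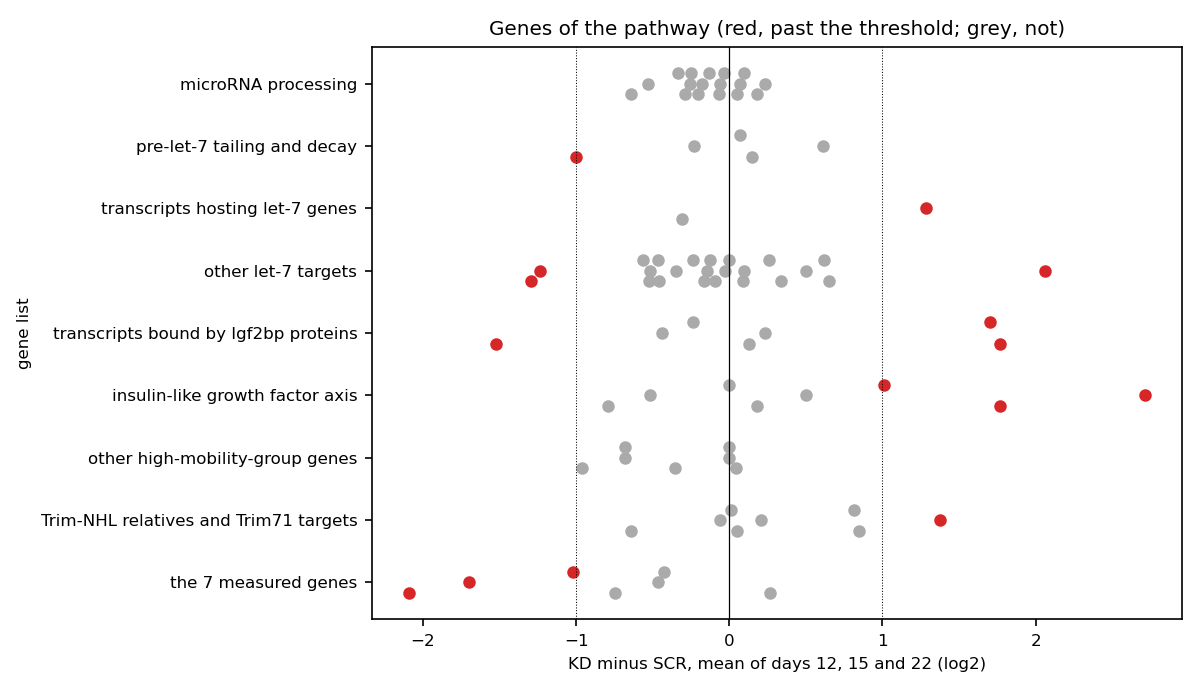
Difference of log2 means over days 12 to 22, KD minus SCR, for each measured gene of 8 lists and for the 7 genes described here, by list. Points past the threshold are red, and 3 of the 7 genes are red and below zero, beside 3 of 8 genes of the insulin-like growth factor axis above zero and none of 17 microRNA processing genes.

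The lists around these genes were read against the share of all probe sets called in the same comparison. Of 17 microRNA processing genes other than Dicer1, none was called in KD against SCR EBs over days 12 to 22, with a median of -0.13 beside -0.0578 over all probe sets. Drosha, the nuclear ribonuclease (-0.64), and Xpo5, which exports precursors (-0.53), were named after their values were seen, with adjusted p of 3.77e-12 and 3.65e-14 in limma but short of 2-fold. Against WT EBs 3 of the 17 were called (17.6%, beside 14.3% of all probe sets), chosen for mention after their values were seen. Drosha (-1.01) and Tarbp2, a partner of Dicer1 (-1.09), were lower, and Ago4, an Argonaute protein (1.06), was higher.

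Of 5 measured genes listed with pre-let-7 tailing and decay, Msi1 alone (20%, beside 11.3% of all probe sets) was lower in KD than in SCR EBs. Its difference of -1.0 ± 0.10 was only just past the 2-fold threshold, and the list median was 0.07. Msi1 was higher in SCR than in WT EBs by 1.80 ± 0.10, and KD EBs lay above WT EBs by 0.79, short of 2-fold. Msi1 is an RNA-binding protein of neural stem cells that works with Lin28. Of transcripts that host let-7 genes, 2 of 6 were measured. Mir99ahg, which hosts Mirlet7c-1, was higher in KD than in SCR EBs by 1.29 ± 0.13. Its group means were 6.92, 6.80 and 5.83 in KD, 4.52, 5.88 and 5.28 in SCR and 5.02, 4.08 and 3.11 in WT EBs on days 12, 15 and 22, the WT means of days 15 and 22 lying below the lower quartile of an array.

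Other let-7 targets gave 1 call up and 2 down among 23 measured of 26 listed (13%, near the 11.3% of all probe sets), with a median of -0.129. Thbs1, a matrix glycoprotein, was higher by 2.06, and the DNA-binding protein Arid3b (-1.30) and the transcription factor Mycn (-1.24) were lower. Against WT EBs 3 of the 23 were higher and 1 lower (17.4%, beside 14.3% of all probe sets). On day 4, 5 were higher and 1 lower in KD than in SCR EBs (26.1%, beside 9.73% of all probe sets), and 1 was higher and 4 lower in SCR than in WT EBs (21.7%, beside 9.04%). Both comparisons share the SCR arrays. None was called in KD against WT EBs on day 4, with a median of 0.0267. Ccnd2, a cyclin of the G1 phase named after its values were seen, differed by 3.45 in KD against SCR and by -0.31, not called, in KD against WT on day 4.

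Transcripts known to be bound by Igf2bp proteins gave 2 calls up and 1 down among 7 measured over days 12 to 22 (42.9%, beside 11.3% of all probe sets). Igf2, a fetal growth factor, was higher in KD than in SCR EBs by 1.77 ± 0.14, with means of 13.6, 13.6 and 13.2 in KD, 12.2, 12.0 and 10.8 in SCR and 13.0, 12.0 and 11.6 in WT EBs on days 12, 15 and 22. Cd44, a hyaluronan receptor, was higher by 1.70 and the kinase Mapk4 lower by -1.52. In the insulin-like growth factor axis 3 of 8 were higher and none lower, namely Igf1 (2.72 ± 0.13), Igf2 and its clearance receptor Igf2r (1.01 ± 0.09), with a median of 0.341 (37.5% called, beside 11.3% of all probe sets). The axis also had 3 calls up against WT EBs (37.5%, beside 14.3% of all probe sets), with a median of 0.914 beside -0.0189 over all probe sets.

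Of 7 measured other high-mobility-group genes none was called in KD against SCR EBs over days 12 to 22, with a median of -0.352. Against WT EBs 1 was higher and 2 were lower (42.9%, beside 14.3% of all probe sets). Of 8 Trim-NHL relatives and Trim71 targets, Egr1, an immediate early transcription factor, was higher by 1.37 ± 0.17 (12.5% of the list called, beside 11.3% of all probe sets). Cdkn1a, the cell cycle inhibitor p21, named after its values were seen, differed by 0.85 ± 0.04 and fell short of 2-fold.

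For each gene whose group means spanned at least 2 on the log2 scale, the 3 genes with the most similar profile over the 18 group means were taken from 14103 others by Pearson r. For Lin28a these were Noc2l (0.969), Polr3g (0.967) and Mrps30 (0.963). For Trim71 they were Sall4 (0.985), Rnaseh2a (0.97) and Lig1 (0.967), and Sall4 is one of the pluripotency markers above. Igf2bp1 was nearest to Tacc3 (0.967), Spdl1 (0.965) and Mtrex (0.964), and Hmga2 to Kirrel (0.973), Tlcd5 (0.965) and Zc3hav1l (0.959). Among the genes themselves, Igf2bp1 had r = 0.922 with Trim71 and 0.893 with Lin28a, and Hmga2 had r = 0.574 with Igf2bp3.

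Ordered by mean over the 18 groups, neighbouring groups often did not differ beyond their spread. The arrays of neighbours overlapped in 13 of 17 steps for Lin28a, 14 for Trim71, 12 for Igf2bp1, 14 for Igf2bp3, 16 for Dicer1, 17 for Lin28b and 7 for Hmga2. Lin28a was highest in 2-day KD EBs (9.80) and lowest in 12-day KD EBs (6.11), with a step free of overlap from 12-day WT (8.11) to 22-day KD EBs (7.07). Hmga2 was highest in 4-day KD and 4-day WT EBs (12.0 each) and lowest in 2-day SCR EBs (6.29), and 4-day SCR EBs ranked 12 of 18.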

How the data were processed

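RNA was hybridised to 54 Affymetrix Mouse Genome 430 2.0 arrays. The authors deposited log2 values after RMA background correction, normalization and summary. Their notes name Affymetrix Expression Console and Partek 6.6, and their methods name R Bioconductor. RMA pulls arrays to 1 distribution, so values are relative within an array. Signal sums are of these log2 values turned back to a linear scale. Probe sets were named from GEO's platform annotation: 25596 had 1 symbol, 685 several and 4658 none, and 14104 genes were represented. Groups came from the labels. With limma 3.58.1 in R 4.3.3, 1 mean per group was fitted to all 54 arrays (36 residual degrees of freedom), followed by eBayes and Benjamini-Hochberg adjustment over 30939 probe sets in each comparison. The 3 arrays per group limit the precision, and no read depth applies. The fit was tested on simulated data.

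The members, the gene lists and the marker lists were chosen with earlier results of these data known. Named from a list were up to 4 genes with the largest change between KD and SCR EBs over days 12 to 22 among those called. Other scalings, filters, variance models, call rules, a replicate block and left-out arrays were tried. Same-numbered arrays of different groups had correlations of deviations of -0.4 to 0.501 (median 0.0367), over 0.1 in 139 of 459 pairs, beside 73 of 918 for different numbers. Same-numbered pairs thus passed 0.1 more often, though most did not, and the main fit did not take the numbers as pairs. Whether the numbers mark shared handling was not tested, and counts with a replicate block are given below. RefSeq promoters were found for 8 of 9 members, with none for Igf2bp1.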

Additional observations from a re-analysis of the deposited data

Results flagged for a closer look

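The change over time differed between lines by a direct test (interaction term in limma, adjusted over all probe sets). From day 0 to day 4 the change of Hmga2 differed between KD and SCR cells by 4.66 on the log2 scale (SE 0.182; limma adjusted p = 1.2e-22) and between SCR and WT cells by -3.84. These 2 contrasts share the SCR arrays.

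From day 0 to the mean of days 12 to 22, the change differed between KD and SCR cells by -2.09 for Lin28a, -1.8 for Trim71, -1.24 for Igf2bp1 and 1.17 for Hmga2. Between KD and WT cells it differed by -2.63 for Lin28a, -2.21 for Trim71, -1.19 for Igf2bp1 and 1.1 for Hmga2. The values of Hmga2 stand beside its lower day-0 signal in KD ESCs, with a mean of 7.0 beside 7.91 in SCR and 7.73 in WT ESCs.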

How the results depend on the processing

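Gene by gene, 70 differences of the 7 genes were recomputed under 10 other settings and with arrays left out: the line comparisons on day 4 and over days 12 to 22, day 22 against day 0, and the late change in KD against SCR. Of these, 19 were called, none of the 19 changed direction, and 13 passed in every setting run. For the other single days the count of calls was recomputed, and the remaining time comparisons were not. Without the 2-fold minimum, the calls were 7 in KD against SCR EBs over days 12 to 22 and 23 over single days, 6 and 23 in KD against WT, 4 and 22 in SCR against WT, and 7 for the change from day 0 in KD against SCR. For day 22 against day 0 that rule gave 4 calls in WT and 7 in SCR cells. Centring each array on its median gave 4 calls in KD against WT over days 12 to 22. A limma test against a 2-fold minimum gave 1 call for day 22 against day 0 in SCR cells and 2 for the change from day 0 in KD against SCR.

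Leaving out arrays gave 2 to 3 calls in KD against SCR over days 12 to 22 and 9 to 10 over single days, 2 to 4 and 8 to 11 in KD against WT, and 0 to 0 and 1 to 2 in SCR against WT. For day 22 against day 0 it gave 1 to 1 in WT, 2 to 4 in SCR and 4 to 5 in KD cells, and for the change from day 0 in KD against SCR 4 to 4. The 4 calls in KD against WT came without replicate 2, and the 2 calls in SCR against WT without replicate 2, without replicate 3 or without the 15-day SCR replicate 2 or 3. The Lin28a call for day 22 against day 0 in SCR cells was lost after quantile normalization, without replicate 2 or 3, and without the 22-day SCR replicate 2 or the 0-day SCR replicate 3. The Hmga2 call there was lost with the mean of its probe sets (0.745).

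With replicate number as a replicate block the counts were 3, 9, 2, 10, 0 and 1 for these line comparisons, 1, 3 and 4 for day 22 against day 0 in WT, SCR and KD cells, and 4 for the change from day 0, as without it. The cause of these shifts was not tested. In 17 of 18 groups, KD day 22 being the exception, replicate 3 lay between the other 2 replicates most often, for a median of 42.3% of probe sets. Were replicate 3 not a separate sample, n would be below 3 and the SEs and p-values printed would be too small. Without replicate 3 the line comparisons had 2, 9, 2, 9, 0 and 2 calls, in the order above. Lin28b was below its arrays' lower quartile and has no value among the brightest 60% of probe sets, so its differences have little signal behind them.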
